A study of Mus musculus with 6 samples.

Results

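The genes described here encode laminins, collagens, integrins and other proteins of the extracellular matrix, the protein scaffold that cells secrete and hold on to. They were picked by gene symbol alone: laminin chains (Lama, Lamb and Lamc), collagen chains (Col), integrin α and β subunits (Itga and Itgb) and matrix metalloproteinases (Mmp), each with number endings, together with Itgav, Itgae, Itgal, Itgam, Itgax, Nid1, Nid2, Hspg2, Agrn, Sparc, Fn1, Timp1, Timp2 and Timp3. This gave 109 of the 27179 genes in the count table. The RNA is from mESCs, the mouse's embryonic stem cells, which are pluripotent and were grown on gelatin-coated plates in medium with serum and the cytokine LIF. All 6 libraries came from cells with Tfe3-ERT2, the transcription factor Tfe3 fused to a tamoxifen-binding part of the estrogen receptor, which holds the protein outside the nucleus until the ligand binds. In the 4OHT group (3 libraries) cells were treated with 4-hydroxytamoxifen at 1 µg/mL for 48 h to bring the fusion into the nucleus, and in the EtOH group (3 libraries) they received the ethanol vehicle. What promoter drives the fusion, and whether the line is a single clone, is not stated in the study's labels. Every library carries the fusion, so an effect of the ligand alone and an effect of nuclear Tfe3 cannot be told apart.

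Laminins are trimers of an α, a β and a γ chain that assemble into the first sheet of a basement membrane, the thin matrix layer under epithelia. Collagen IV forms a second network, and nidogens and the proteoglycans perlecan (Hspg2) and agrin connect the networks to each other and to cells. Integrins, pairs of an α and a β subunit in the cell membrane, bind these proteins; matrix metalloproteinases cut them and TIMPs inhibit the metalloproteinases. In the early mouse embryo such a basement membrane separates the epiblast, the tissue mESCs resemble, from the primitive endoderm.

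Libraries held between 4092877 and 6427880 counts, and a floor of 3 counts equalled 0.469 to 0.738 CPM, the TMM-scaled unit used for all levels; it reflects counting error alone. Nothing in the labels ties the libraries to separate cultures, so p-values measure the spread between these libraries, which may be technical. Tfe3 itself was at 832 ± 4.34 CPM in 4OHT and 1038 ± 35.1 CPM in EtOH (SD, n = 3 each; log2 fold change −0.32), a value that pools the endogenous gene with the fusion as far as they share the counted sequence. The stem cell label was met by its markers, with Pou5f1 at 697 ± 25.8 CPM in 4OHT and 791 ± 25.4 CPM in EtOH and Sox2 at 549 ± 12.8 CPM in 4OHT and 556 ± 9.77 CPM in EtOH. These markers were not all steady: of 7 listed and tested, edgeR called 3 higher and 2 lower in 4OHT. Their log2 fold changes lay between −0.35 and 0.64. Pou5f1 was among the lower (log2 fold change −0.18), and Sox2 was not called. Markers of primitive and parietal endoderm outside the set of matrix genes gave no call: of 17 listed, 5 were tested, none passed with edgeR, DESeq2 or limma-voom, and 1 had an unadjusted edgeR p under 0.05. Their summed level was between 260.4 and 271 CPM in 4OHT and between 258 and 276 CPM in EtOH, and Afp and Ttr were at 0 in all libraries. Lrp2 made up most of this sum, and without it the level was 31.5 to 35.7 CPM in 4OHT and 19.9 to 29.6 CPM in EtOH, with Sox7 at 3.74 CPM in 4OHT and 2.30 CPM in EtOH (edgeR adjusted p = 0.081). Of 11 fibroblast markers 3 were tested and none was called with edgeR (also 0 at an unadjusted p under 0.05), DESeq2 or limma-voom (summed level 13.02 to 16.2 CPM in 4OHT and 11.7 to 18.9 CPM in EtOH, with Lum and Tcf21 at 0). Trophectoderm markers moved with the treatment: of 12 listed, 7 of 8 tested were higher in 4OHT with edgeR and 6 with DESeq2. By edgeR 21.4% of all tested genes were higher. The summed level of the 12 was 1002 to 1035 CPM in 4OHT and 471 to 494 CPM in EtOH. Higher were the keratin genes Krt8 (2.23-fold), Krt18 (2.31-fold) and Krt7 (2.50-fold). The factor genes Hand1 (5.98-fold), Eomes (2.62-fold) and Gata3 (2.25-fold), named after their values were known, were also higher. Hand1, with 46, 46 and 55 counts in 4OHT and 3, 9 and 8 in EtOH, passed the filter only through the 4OHT group. Among the others of the list, Tpbpa was at 0, Elf5 had 1 count in all and Cdx2, with 5 to 14 counts a library, did not pass the filter. Of 8 endothelial and blood markers 4 were tested, of which Laptm5 (1.87-fold) and Kdr (4.56-fold, edgeR adjusted p = 0.00025) were higher and Cd34 was lower in 4OHT (log2 fold change −1.08). Kdr had 12, 12 and 21 counts in 4OHT and 4, 0 and 4 in EtOH. Cd34 had 9, 11 and 6 counts in 4OHT and 20, 14 and 11 in EtOH. Kdr and Cd34 each passed the filter only through the group in which they were high. Emcn was at 0. The part of these other markers in the results on matrix genes was not tested.

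In 4OHT, 10 of 16 tested integrin genes and 5 of 6 linkers and matrix glycoproteins were higher, and 4 of 7 tested metalloproteinase genes were lower, by edgeR. The same counts were 7, 5 and 3 with DESeq2 and 8, 5 and 4 with limma-voom. The genes of collagen IV, Col4a1 (1.94-fold) and Col4a2 (2.14-fold), the nidogen gene Nid1 (1.97-fold), the integrin gene Itgb4 (2.23-fold) and the inhibitor gene Timp2 (1.96-fold) about doubled, whereas Lamb1, encoding a laminin β chain, was 1.47-fold lower and Mmp2, a gelatinase gene, 2.23-fold lower. Of the 109 genes 58 passed the filter on low counts and were tested, in a fit over all 12345 tested genes of the table. With edgeR's quasi-likelihood test and a Benjamini-Hochberg adjusted p under 0.05, 29 of the 58 were higher in 4OHT, where 21.4% of all tested genes were, and 6 were lower, where 20.6% were; 42.0% of all tested genes were called in either direction. At least 1.5-fold were 13 of the higher genes (7.85% of all tested genes) and 4 of the lower (4.31%). The median log2 fold change of the 58 was 0.23, against −0.00 over all tested genes. Of the 58, 52 reached the filter's cutoff of 2.08 CPM in all 6 libraries. The others (Col1a2, Col5a3, Col13a1, Col17a1, Itga7 and Itga10) did so in part of them. In EtOH these 6 reached it in at most 2 libraries, Col13a1 in 1 and Col17a1 in 0, too few for the filter's 3 libraries without the 4OHT group. The passing of Col13a1, Col17a1 and Itga7, which were called higher, thus depended on the group in which they were high. The groups did not overlap in 33 genes that were higher in 4OHT (25.1% of all tested genes) and in 5 that were lower (23.7%). In RNA of whole cultures, fewer cells that express a gene and less RNA per cell cannot be told apart. The 109 genes together took between 10108 and 10188 CPM in the 4OHT libraries, against 7841 to 8134 CPM in the EtOH libraries.

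**Figure D1:**
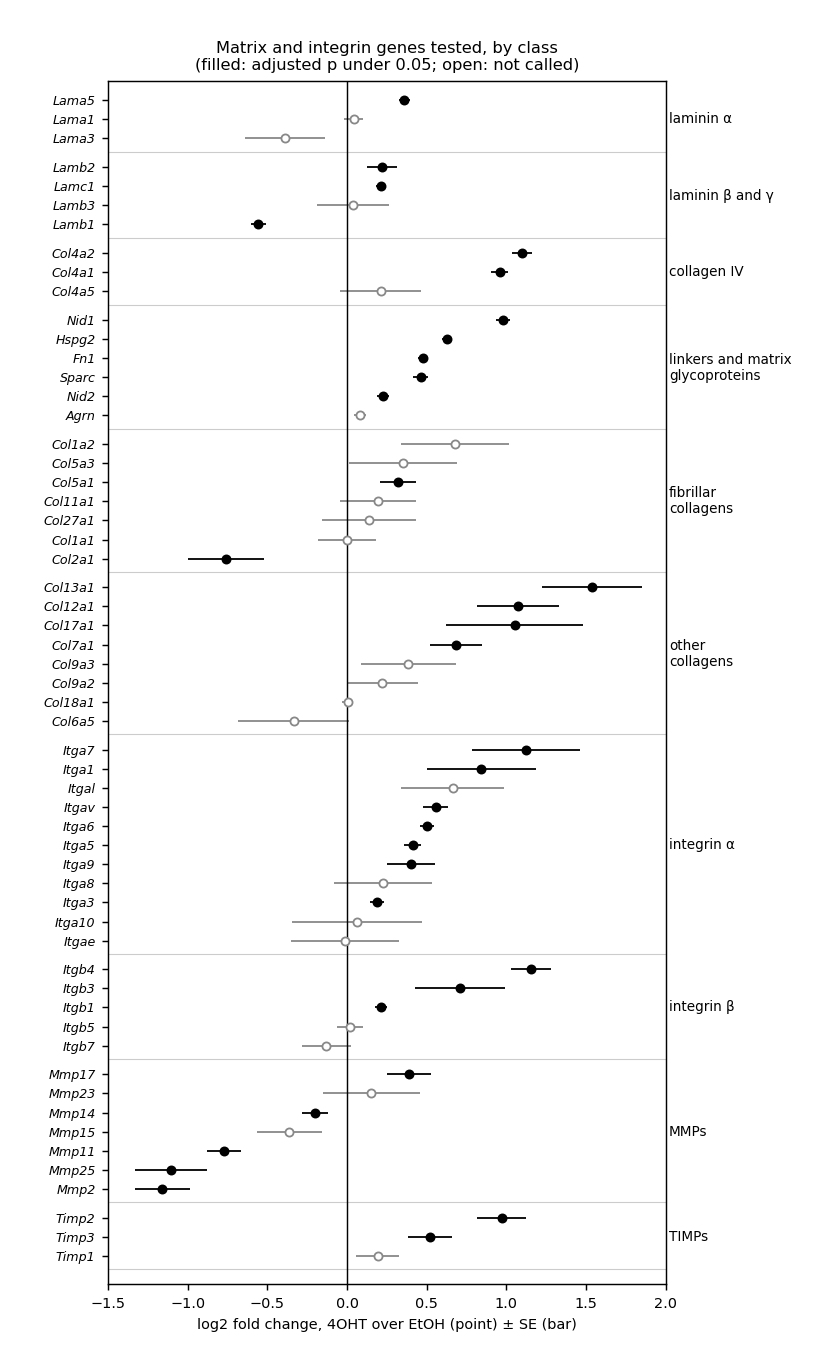
Log2 fold change (4OHT over EtOH) with its SE for matrix and integrin genes tested, grouped by class and ordered by value; filled points passed an adjusted p of 0.05 and open points did not. Collagen IV, linker and integrin genes lie mostly to the right of 0, and Lamb1, Col2a1 and 4 metalloproteinase genes are the filled points to the left.

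The promoters of the genes that doubled or fell in the basement membrane are shown first. Col4a1 and Col4a2 lie head to head on chromosome 8 and are read in opposite directions. The transcript starts used here lie 21 bases apart, so their windows overlap by 78 bases. Nid1 encodes nidogen-1, and Lamb1 is the laminin gene that fell. Each window runs from 250 bases before to 50 bases after a transcript start that RefSeq gives on GRCm38 (mm10), 5′ to 3′ on the gene's strand. The gene bounds reach further out for Col4a1 (to 11312889) and Lamb1 (from 31265146). Capitals mark CCAAT or GGGCGG and their reverse complements ATTGG and CCGCCC, letters that the common promoter factors NF-Y and Sp1 are known to bind.
Col4a1, chr8:11312777-11313076, minus strand: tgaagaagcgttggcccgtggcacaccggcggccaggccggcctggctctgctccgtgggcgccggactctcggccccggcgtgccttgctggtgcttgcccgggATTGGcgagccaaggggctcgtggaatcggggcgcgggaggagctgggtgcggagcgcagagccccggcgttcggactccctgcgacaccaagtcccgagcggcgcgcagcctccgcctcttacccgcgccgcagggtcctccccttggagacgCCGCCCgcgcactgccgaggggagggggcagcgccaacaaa
Col4a2, chr8:11312555-11312854, plus strand: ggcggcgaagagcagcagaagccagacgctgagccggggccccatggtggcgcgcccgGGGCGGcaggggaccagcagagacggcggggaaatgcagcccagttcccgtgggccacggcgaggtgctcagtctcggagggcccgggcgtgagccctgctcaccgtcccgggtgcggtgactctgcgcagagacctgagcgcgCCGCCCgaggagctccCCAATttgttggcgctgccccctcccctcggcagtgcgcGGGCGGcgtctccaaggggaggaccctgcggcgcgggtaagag
Nid1, chr13:13437352-13437651, plus strand: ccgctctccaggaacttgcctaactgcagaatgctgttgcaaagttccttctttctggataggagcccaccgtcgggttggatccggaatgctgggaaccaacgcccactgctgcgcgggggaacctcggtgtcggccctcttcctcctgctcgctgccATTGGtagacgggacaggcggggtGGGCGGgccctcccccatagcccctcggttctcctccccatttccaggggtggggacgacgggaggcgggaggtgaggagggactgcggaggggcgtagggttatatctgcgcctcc
Lamb1, chr12:31265043-31265342, plus strand: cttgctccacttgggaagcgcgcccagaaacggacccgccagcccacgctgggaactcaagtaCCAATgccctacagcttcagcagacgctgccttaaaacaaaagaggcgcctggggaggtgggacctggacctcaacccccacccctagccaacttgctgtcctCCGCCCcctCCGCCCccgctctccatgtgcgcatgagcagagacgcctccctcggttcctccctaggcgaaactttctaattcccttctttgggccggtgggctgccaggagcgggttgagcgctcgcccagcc
Each of these windows holds both motifs, the fallen Lamb1 included. On either strand, CCAAT was in 37.5% of the 40 tested matrix genes that have a window, in 43.4% of the 9635 tested genes with one and in 41.1% of all 27025 windows. GGGCGG was in 75.0% of the 40, in 71.3% of the tested genes and in 38.2% of all windows. The E-box letters CACGTG, the core of the sites that Tfe3 and its relatives are known to bind, were in 0 of the 40 tested matrix genes, in 12.2% of the 9635 tested genes and in 8.09% of all windows. Of the 80 matrix genes with a window the untested Mmp7 alone held CACGTG. The letters TCANGTGA, where N is any base, were in 2.5% of the 40, in 3.79% of the tested genes and in 3.16% of all windows. Among the 80 only Col9a2, which was not called, held TCANGTGA. These are letters in 300 bases and not measured binding.

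The laminin chain genes moved in different directions. Lama5, the main α chain gene here, was at 696, 679 and 661 CPM in the 4OHT libraries, against 525, 547 and 513 CPM in the EtOH libraries. Lama5 rose 1.28-fold (log2 fold change 0.36 ± 0.03 SE, adjusted p = 1.5e-19 by edgeR). Lama1, whose chain prevails in the basement membranes of the early embryo, was at 97.02, 98.8 and 112 CPM in the 4OHT libraries, against 97.3, 103 and 101 CPM in the EtOH libraries, and these values overlap. It was not called (log2 fold change 0.04 ± 0.06 SE, adjusted p = 0.63 by edgeR; log2 fold change −0.03 without 4OHT replicate 3). Lama3, an α chain gene of epithelial laminins, was low at 4.84 ± 0.691 CPM in 4OHT and 6.42 ± 2.08 CPM in EtOH (SD, n = 3 each) and was not called (log2 fold change −0.39 ± 0.25 SE, adjusted p = 0.21 by edgeR). Among the partners, Lamc1, the γ chain gene of most laminins, was at 988, 995 and 975 CPM in the 4OHT libraries, against 861, 875 and 816 CPM in the EtOH libraries, a rise of 1.16-fold (log2 fold change 0.21 ± 0.03 SE, adjusted p = 1.9e-09 by edgeR). Every 4OHT library was above every EtOH library. Lamb1 went the other way, with 143, 154 and 171 CPM in the 4OHT libraries, against 237, 227 and 228 CPM in the EtOH libraries (log2 fold change −0.56 ± 0.05 SE, adjusted p = 7.3e-24 by edgeR), and its highest 4OHT value lay below its lowest EtOH value. Lamb2, the alternative β chain gene, was at 44.5, 43.6 and 41.2 CPM in the 4OHT libraries, against 35.04, 39.6 and 36.2 CPM in the EtOH libraries (1.17-fold, edgeR adjusted p = 0.045), without overlap. Lamb2 missed the threshold without 4OHT replicate 1 (adjusted p = 0.110), without 4OHT replicate 2 (0.0865), without EtOH replicate 1 (0.187), without EtOH replicate 3 (0.107), with upper quartile factors (0.0948), with no filter on low counts (0.0576) and with DESeq2 (0.177). Lamb3, the β chain gene of epithelial laminins, was at 6.79 ± 0.880 CPM in 4OHT and 6.58 ± 1.61 CPM in EtOH (SD, n = 3 each) and was not called (log2 fold change 0.04 ± 0.23 SE, adjusted p = 0.92 by edgeR, between −0.12 and 0.25 when single libraries were left out). In all, 4 of the 8 laminin genes tested were higher and 1 was lower, against 21.4% and 20.6% of all tested genes.

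Divided by gene length, the levels of the chains can be set beside each other. Lamc1 stood at 129 ± 1.31 CPM per kb in 4OHT and 112 ± 4.03 CPM per kb in EtOH, Lama5 at 59.6 ± 1.56 CPM per kb in 4OHT and 46.4 ± 1.54 CPM per kb in EtOH and Lamb1 at 27.00 ± 2.47 CPM per kb in 4OHT and 39.9 ± 0.922 CPM per kb in EtOH. The γ chain gene was thus the highest and the β chain gene the lowest of these 3 in both groups, with Lama5 and Lamb1 closer together in EtOH. Per length, Lamb1 was 0.209 ± 0.0208 of Lamc1 in the 4OHT libraries and 0.358 ± 0.0133 in the EtOH libraries, and Lama5 was 2.22 ± 0.258 times Lamb1 in 4OHT and 1.16 ± 0.0514 times in EtOH; neither ratio overlapped between groups. An exact permutation test of 3 against 3 libraries cannot go below p = 0.10, so no p is given for single ratios and shares. Lamb1 made up 74.2% ± 2.76 of the summed β chain level in the 4OHT libraries, against 82.98% ± 1.65 in the EtOH libraries. The share of Lamb2 was 21.2% ± 1.95 in 4OHT, against 13.6% ± 0.839 in EtOH, so the β chains were less dominated by Lamb1 after 4OHT in each library. Among α chains Lama5 held 83.9% ± 1.43 in 4OHT, against 80.3% ± 0.481 in EtOH, and Lama1 15.2% ± 1.29 in 4OHT, against 18.2% ± 0.459 in EtOH. Raw counts without division by length gave Lama5 86.2% in 4OHT and 83.0% in EtOH.

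**Figure D2:**
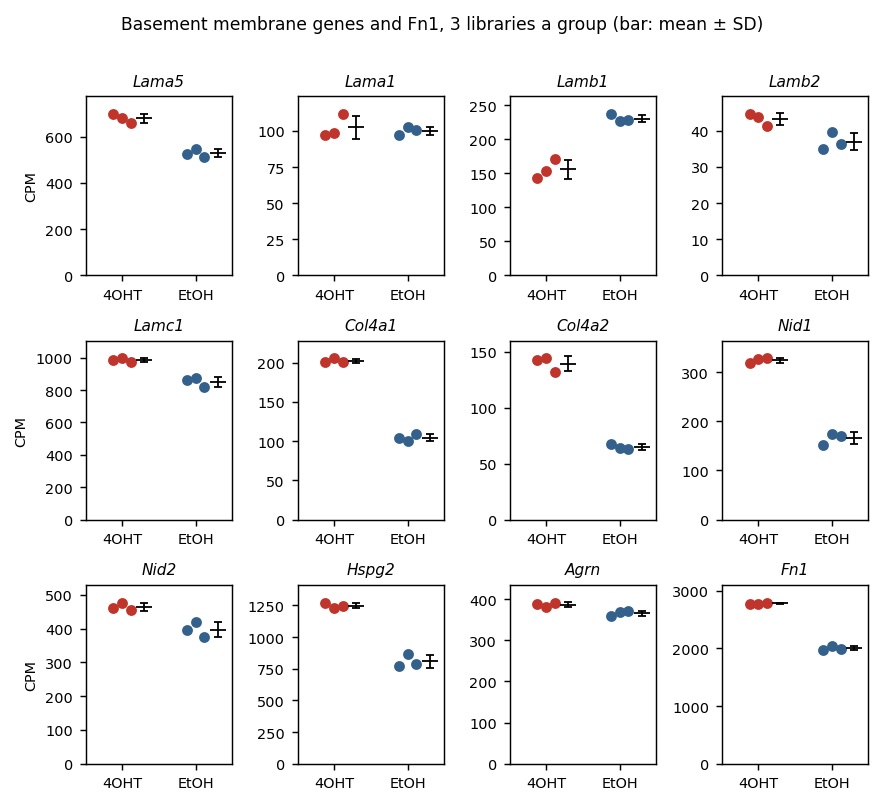
CPM of 11 basement membrane genes and Fn1 in each library (points; 4OHT left, EtOH right) with the group mean ± SD beside them (bar, n = 3), each axis starting at 0. Lamb1 is the gene whose 4OHT points lie below its EtOH points; Col4a1 averages 202 CPM in 4OHT and 104 in EtOH, and Nid1 324 CPM in 4OHT and 165 in EtOH.

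Collagen IV RNA rose through the genes of its main chains. Col4a1, encoding the α1 chain that with α2 makes the common collagen IV trimer, was at 200.1, 205 and 201 CPM in the 4OHT libraries, against 104, 99.7 and 109 CPM in the EtOH libraries (log2 fold change 0.96 ± 0.05 SE, adjusted p = 8.1e-47 by edgeR). Col4a2 was at 142, 144 and 132 CPM in the 4OHT libraries, against 67.9, 63.7 and 63.2 CPM in the EtOH libraries (log2 fold change 1.10 ± 0.06 SE, adjusted p = 3.2e-43 by edgeR). Neither gene's groups overlapped. Per length Col4a1 was 1.41 ± 0.0607 times Col4a2 in 4OHT and 1.56 ± 0.100 times in EtOH. Col4a5, a chain of specialised basement membranes, was at 6.11 ± 1.88 CPM in 4OHT and 5.25 ± 1.74 CPM in EtOH (SD, n = 3 each) and was not called (log2 fold change 0.21 ± 0.25 SE, adjusted p = 0.54 by edgeR; −0.03 without 4OHT replicate 1 and −0.04 without EtOH replicate 1). Its neighbour Col4a6 had 20 counts in all libraries together, and the adjacent pair Col4a3 and Col4a4 had 8 and 5; these 3 genes did not pass the filter.

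All 6 linkers and matrix glycoproteins passed the filter, and 5 rose, where 21.4% of all tested genes did. None fell with edgeR, DESeq2 or limma-voom or at an unadjusted p under 0.05. Nid1, encoding nidogen-1, which bridges laminin γ chains and collagen IV, was at 319, 326 and 328 CPM in the 4OHT libraries, against 151, 174 and 170.2 CPM in the EtOH libraries (log2 fold change 0.98 ± 0.04 SE, adjusted p = 3.9e-58 by edgeR). Its relative Nid2 was at 459.9, 477 and 456 CPM in the 4OHT libraries, against 396, 418 and 375 CPM in the EtOH libraries, a smaller rise of 1.17-fold (log2 fold change 0.23 ± 0.04 SE, adjusted p = 6.2e-08 by edgeR). Per length Nid2 was the higher of the pair in both groups (95.1 ± 2.26 CPM per kb in 4OHT and 81.2 ± 4.43 CPM per kb in EtOH), and Nid1 stood at 53.6 ± 0.814 CPM per kb in 4OHT and 27.3 ± 1.99 CPM per kb in EtOH. Hspg2, encoding perlecan, a large heparan sulfate proteoglycan, was at 1273, 1232 and 1242 CPM in the 4OHT libraries, against 772, 865 and 788 CPM in the EtOH libraries. Hspg2 rose 1.55-fold (log2 fold change 0.63 ± 0.03 SE, adjusted p = 1.7e-49 by edgeR). Agrn, encoding agrin, a proteoglycan that binds laminins, was at 388, 381 and 392 CPM in the 4OHT libraries, against 359, 368 and 370.0 CPM in the EtOH libraries. These values did not overlap, but the difference was small and was not called (log2 fold change 0.08 ± 0.04 SE, adjusted p = 0.079 by edgeR; adjusted p = 0.0495 without 4OHT replicate 2). Fn1, encoding fibronectin, the matrix protein bound by the integrin of Itga5 and Itgb1, was at 2774, 2777 and 2795 CPM in the 4OHT libraries, against 1973, 2038 and 1996 CPM in the EtOH libraries. Fn1 rose 1.39-fold (log2 fold change 0.47 ± 0.03 SE, adjusted p = 1.7e-42 by edgeR). Per length it was the highest of the 109 genes in both groups (335 ± 1.36 CPM per kb in 4OHT and 241 ± 3.99 CPM per kb in EtOH). Sparc, a collagen-binding glycoprotein gene also strongly expressed in parietal endoderm, was at 229, 226 and 212 CPM in the 4OHT libraries, against 170.2, 157 and 155 CPM in the EtOH libraries. Sparc rose 1.38-fold (log2 fold change 0.46 ± 0.05 SE, adjusted p = 5.4e-18 by edgeR). Of the 17 endoderm markers given above 5 were tested and none was called. Without Lrp2 their summed level was 31.5 to 35.7 CPM in 4OHT and 19.9 to 29.6 CPM in EtOH. The part of endoderm cells in the rise of Sparc was not tested.

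**Figure D3:**
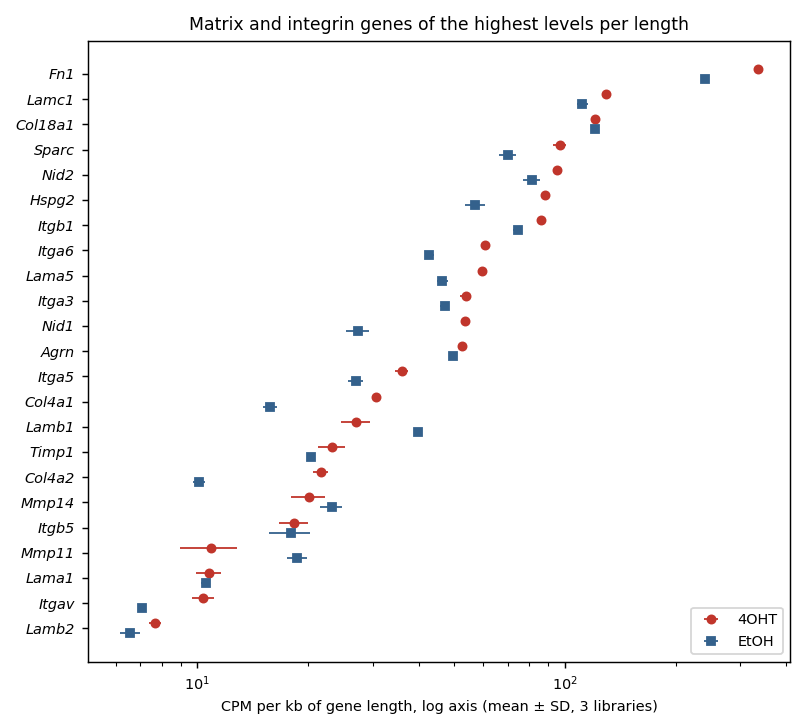
CPM per kb of deposited gene length (mean ± SD, n = 3; log axis) of 23 matrix and integrin genes among the 24 highest, in 4OHT order from top to bottom; circles are 4OHT and squares EtOH. Fn1 leads at 335 CPM per kb in 4OHT and 241 in EtOH, Col18a1 has nearly the same level in both groups, and Lamb1, Mmp14 and Mmp11 have their squares to the right.

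Fibrillar collagens, the rope-forming collagens of connective tissue, were low and mostly not called. Col5a1, which helps to start fibrils, was at 31.7, 30.8 and 32.3 CPM in the 4OHT libraries, against 24.97, 26.2 and 24.8 CPM in the EtOH libraries. Col5a1 rose 1.25-fold (log2 fold change 0.32 ± 0.11 SE, adjusted p = 0.012 by edgeR), without overlap. Significance was lost with DESeq2 (adjusted p = 0.0815). Col2a1, the main cartilage collagen gene, was at 3.26, 4.69 and 5.78 CPM in the 4OHT libraries, against 7.85, 9.95 and 5.90 CPM in the EtOH libraries and was 1.69-fold lower (log2 fold change −0.76 ± 0.24 SE, adjusted p = 0.0052 by edgeR). The call was lost without 4OHT replicate 1 (adjusted p = 0.0525), without EtOH replicate 2 (0.0903) and with DESeq2 (0.0530). Col1a1 and Col1a2, the chains of collagen I and markers of fibroblasts, were at 10.3 ± 1.54 CPM in 4OHT and 10.6 ± 2.40 CPM in EtOH (SD, n = 3 each) and at 3.91 ± 0.229 CPM in 4OHT and 2.48 ± 1.03 CPM in EtOH (SD, n = 3 each). Neither was called: Col1a1 had a log2 fold change of 0.00 (edgeR adjusted p = 1.0; between −0.16 and 0.17 when single libraries were left out), and Col1a2 one of 0.68 (edgeR adjusted p = 0.096; adjusted p = 0.0312 without EtOH replicate 2). Col5a3 (0.35), Col11a1 (0.20) and Col27a1 (0.14, and −0.01 without EtOH replicate 2) were not called either, with those log2 fold changes. In this class 1 of 7 tested genes was higher and 1 lower, against 21.4% and 20.6% of all tested genes.

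Among the other collagens, 4 of 8 tested genes were higher, where 21.4% of all tested genes were. None was lower by edgeR, DESeq2, limma-voom or an unadjusted p under 0.05. The 4 include Col13a1 and Col17a1, which passed the filter only through the 4OHT group, in which they were high. Col18a1, a basement membrane collagen gene whose protein is the precursor of endostatin, was the highest of the class per length (121 ± 1.64 CPM per kb in 4OHT and 121 ± 1.67 CPM per kb in EtOH) and did not differ beyond the spread of the libraries: 711, 693 and 698 CPM in the 4OHT libraries, against 688, 704 and 706 CPM in the EtOH libraries (log2 fold change 0.00 ± 0.03 SE, adjusted p = 0.95 by edgeR; DESeq2 size factors gave −0.00 and upper quartile factors −0.03 on the log2 scale). Col7a1, encoding the collagen of anchoring fibrils, was at 16.7, 15.7 and 17.96 CPM in the 4OHT libraries, against 9.67, 9.27 and 12.8 CPM in the EtOH libraries. Col7a1 rose 1.60-fold (log2 fold change 0.68 ± 0.16 SE, adjusted p = 0.00017 by edgeR). Col12a1, a fibril-associated collagen gene, was at 6.95, 8.30 and 7.65 CPM in the 4OHT libraries, against 3.63, 2.71 and 4.67 CPM in the EtOH libraries. Col12a1 rose 2.10-fold (log2 fold change 1.07 ± 0.26 SE, adjusted p = 0.00018 by edgeR). Both were free of overlap between the groups. Col13a1, encoding a collagen that spans the cell membrane, was at 7.16, 5.77 and 5.47 CPM in the 4OHT libraries, against 1.81, 2.49 and 1.97 CPM in the EtOH libraries, a gene that passed the filter through 4OHT (2.91-fold, log2 fold change 1.54 ± 0.31 SE, adjusted p = 1.1e-05 by edgeR), on 32 to 35 counts a library in 4OHT and 8 to 11 in EtOH. Col17a1, a membrane collagen gene of hemidesmosomes, the junctions that fix epithelia to their basement membrane, was at 2.39, 2.34 and 3.44 CPM in the 4OHT libraries, against 1.81, 0.678 and 1.48 CPM in the EtOH libraries (2.07-fold, edgeR adjusted p = 0.037), on 11 to 22 counts a library in 4OHT and 3 to 9 in EtOH. The call was lost without 4OHT replicate 3 (adjusted p = 0.204), without EtOH replicate 2 (0.211), without EtOH replicate 3 (0.0632), with no filter on low counts (0.0564), with DESeq2 (0.161) and with a replicate block (0.0513). The cartilage collagen genes Col9a2 (log2 fold change 0.22) and Col9a3 (0.38) and the collagen VI chain gene Col6a5 (−0.34) were not called.

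Integrin genes were higher or not called, and none was lower with edgeR, DESeq2 or limma-voom or at an unadjusted p under 0.05. By edgeR 7 of 11 tested α subunit genes and 3 of 5 tested β subunit genes rose, where 21.4% of all tested genes did. The 7 include Itga7, which passed the filter only through the 4OHT group. Itga6, whose product pairs with β1 or β4 to bind laminins, was at 259, 247 and 256 CPM in the 4OHT libraries, against 175, 184 and 180.1 CPM in the EtOH libraries. Itga6 rose 1.42-fold (log2 fold change 0.50 ± 0.04 SE, adjusted p = 3.7e-22 by edgeR). Itgb4, which pairs with Itga6 alone, was at 31.04, 31.7 and 32.8 CPM in the 4OHT libraries, against 15.7, 14.02 and 13.04 CPM in the EtOH libraries. Itgb4 rose 2.23-fold (log2 fold change 1.16 ± 0.13 SE, adjusted p = 8.7e-16 by edgeR). Itgb1, the shared β subunit of most matrix-binding integrins, was at 359, 367 and 359.6 CPM in the 4OHT libraries, against 304, 322 and 310.0 CPM in the EtOH libraries. Itgb1 rose 1.16-fold (log2 fold change 0.21 ± 0.04 SE, adjusted p = 1.4e-06 by edgeR). The groups did not overlap in these 3 genes, and per length Itgb4 remained far below Itgb1, at 0.0599 ± 0.00184 of it in 4OHT and 0.0311 ± 0.00352 in EtOH. Itga3, the other main laminin receptor subunit gene, was at 259.6, 271 and 253 CPM in the 4OHT libraries, against 236, 223 and 228 CPM in the EtOH libraries. Itga3 rose 1.14-fold (log2 fold change 0.19 ± 0.04 SE, adjusted p = 8.9e-05 by edgeR). Itga5, whose product with β1 is the fibronectin receptor, was at 159, 162 and 149.8 CPM in the 4OHT libraries, against 116, 124 and 114 CPM in the EtOH libraries. Itga5 rose 1.33-fold (log2 fold change 0.41 ± 0.05 SE, adjusted p = 2.1e-12 by edgeR). Itgav, the α subunit gene of vitronectin and fibronectin receptors, was at 77.3, 67.6 and 74.5 CPM in the 4OHT libraries, against 48.3, 50.4 and 50.4 CPM in the EtOH libraries. Itgav rose 1.47-fold (log2 fold change 0.56 ± 0.08 SE, adjusted p = 1.1e-10 by edgeR). These 4 α subunits were thus higher in every 4OHT library, by 1.14-fold (Itga3) to 1.47-fold (Itgav). The epithelial keratin genes Krt8 and Krt18 were higher in the same libraries, and their part in the integrin results was not tested.

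Receptor genes at lower levels were less certain. Itga7, a laminin receptor gene of muscle, was at 4.99, 3.97 and 4.69 CPM in the 4OHT libraries, against 2.42, 0.904 and 2.95 CPM in the EtOH libraries (2.18-fold, edgeR adjusted p = 0.0039), on 22 to 30 counts a library in 4OHT and 4 to 12 in EtOH. Itga7 missed the threshold without EtOH replicate 2 (adjusted p = 0.0834). Itga1, a collagen receptor gene, was at 4.99, 4.15 and 3.12 CPM in the 4OHT libraries, against 2.22, 2.26 and 2.21 CPM in the EtOH libraries (1.79-fold, edgeR adjusted p = 0.037). Significance was lost without 4OHT replicate 1 (adjusted p = 0.150), without 4OHT replicate 2 (0.0727), without EtOH replicate 1 (0.0948), without EtOH replicate 2 (0.0750), without EtOH replicate 3 (0.0787), with no filter on low counts (0.0535), with DESeq2 (0.138) and with limma-voom (0.0501). Itga9, a receptor gene for tenascin and other ligands, was at 17.5 ± 1.34 CPM in 4OHT and 13.3 ± 1.58 CPM in EtOH (SD, n = 3 each) (1.32-fold, edgeR adjusted p = 0.024). The call was lost without 4OHT replicate 3 (adjusted p = 0.123), without EtOH replicate 1 (0.121), without EtOH replicate 3 (0.0781) and with DESeq2 (0.124). Itgb3, a partner of αv, was at 7.38, 6.13 and 4.06 CPM in the 4OHT libraries, against 3.63, 2.71 and 4.18 CPM in the EtOH libraries (1.63-fold, edgeR adjusted p = 0.033), with overlap between 4OHT replicate 3 and EtOH replicate 3. Itgb3 missed the threshold without 4OHT replicate 1 (adjusted p = 0.189), without 4OHT replicate 2 (0.0801), without EtOH replicate 1 (0.0694), without EtOH replicate 2 (0.148), with DESeq2 (0.137) and with limma-voom (0.0594). Itgb5, another partner of αv, was at 63.4, 63.1 and 53.9 CPM in the 4OHT libraries, against 58.2, 66.7 and 51.7 CPM in the EtOH libraries and was not called (log2 fold change 0.02 ± 0.08 SE, adjusted p = 0.88 by edgeR; −0.02 with upper quartile factors and between −0.06 and 0.11 when single libraries were left out). Itgb7, which pairs with α4 and αE, was at 14.97, 13.5 and 13.1 CPM in the 4OHT libraries, against 14.9, 16.3 and 14.02 CPM in the EtOH libraries (log2 fold change −0.13 ± 0.15 SE, adjusted p = 0.54 by edgeR), also not called. Itgal, a leukocyte subunit gene, had a log2 fold change of 0.66 that was not called (edgeR adjusted p = 0.088; adjusted p = 0.0363 without 4OHT replicate 3). Itga8 (0.22), Itga10 (0.06) and Itgae (−0.01) were not called either. Itga10 overlaps another gene model on its own strand over 33.5% of its exon bases.

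**Figure D4:**
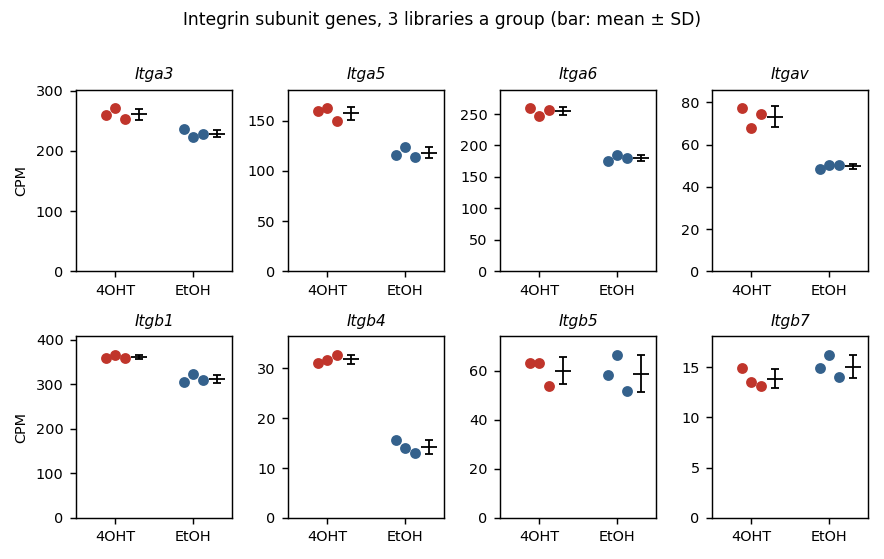
CPM of 8 integrin subunit genes in each library (points; 4OHT left, EtOH right) with the group mean ± SD (bar, n = 3). Itga3, Itga5, Itga6, Itgav, Itgb1 and Itgb4 are higher in every 4OHT library, whereas Itgb5 and Itgb7 overlap between the groups.

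More of the tested metalloproteinase genes were lower than higher, and more of the inhibitor genes were higher than lower. Of 7 tested metalloproteinase genes 4 were lower and 1 was higher, and of 3 tested TIMP genes 2 were higher. The shares of all tested genes were 20.6% lower and 21.4% higher. DESeq2 called 3 metalloproteinase genes lower and 0 higher. Only these 7 of the 21 metalloproteinase genes in the set passed the filter. Mmp2, encoding a gelatinase that cuts collagen IV, was at 6.29, 8.48 and 7.34 CPM in the 4OHT libraries, against 17.1, 14.02 and 18.7 CPM in the EtOH libraries. Mmp2 fell 2.23-fold (log2 fold change −1.16 ± 0.17 SE, adjusted p = 2.3e-09 by edgeR). Mmp25, a membrane-anchored protease gene, was at 5.43, 3.97 and 4.22 CPM in the 4OHT libraries, against 11.1, 9.95 and 7.63 CPM in the EtOH libraries. Mmp25 fell 2.15-fold (log2 fold change −1.11 ± 0.23 SE, adjusted p = 1.1e-05 by edgeR). Mmp11, also called stromelysin-3, was at 21.9, 29.4 and 22.02 CPM in the 4OHT libraries, against 39.5, 41.6 and 44.8 CPM in the EtOH libraries. Mmp11 fell 1.71-fold (log2 fold change −0.77 ± 0.11 SE, adjusted p = 3.7e-11 by edgeR). In these 3 genes every 4OHT library was below every EtOH library. Mmp14, a membrane protease gene whose product activates the Mmp2 protein, was at 47.5, 58.4 and 50.9 CPM in the 4OHT libraries, against 64.8, 56.97 and 58.8 CPM in the EtOH libraries; the groups overlap and the fall was small (1.15-fold lower, log2 fold change −0.20 ± 0.08 SE, adjusted p = 0.031 by edgeR). Significance was lost without 4OHT replicate 1 (adjusted p = 0.192), without 4OHT replicate 3 (0.114), without EtOH replicate 1 (0.243), with no filter on low counts (0.0530) and with DESeq2 (0.147). Mmp17, another membrane-anchored protease gene, was higher, at 21.7, 20.6 and 21.2 CPM in the 4OHT libraries, against 15.9, 16.95 and 15.5 CPM in the EtOH libraries. Mmp17 rose 1.31-fold (log2 fold change 0.39 ± 0.14 SE, adjusted p = 0.014 by edgeR). The call was lost without EtOH replicate 1 (adjusted p = 0.0504) and with DESeq2 (0.0836). Mmp15 (log2 fold change −0.36; adjusted p = 0.0386 without 4OHT replicate 1 and adjusted p = 0.0367 without EtOH replicate 2) and Mmp23 (log2 fold change 0.15; −0.13 without EtOH replicate 1 and −0.01 without 4OHT replicate 3) were not called.

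Timp2, whose protein inhibits metalloproteinases and also takes part in the activation of the Mmp2 protein, was at 20.8, 21.1 and 21.7 CPM in the 4OHT libraries, against 10.9, 11.8 and 9.84 CPM in the EtOH libraries (log2 fold change 0.97 ± 0.15 SE, adjusted p = 7.7e-09 by edgeR). Timp3, encoding an inhibitor that stays bound to the matrix, was at 21.7, 22.00 and 24.99 CPM in the 4OHT libraries, against 17.1, 13.3 and 17.7 CPM in the EtOH libraries. Timp3 rose 1.43-fold (log2 fold change 0.52 ± 0.14 SE, adjusted p = 0.00068 by edgeR). A gene model on the opposite strand covers 21.3% of its exon bases. Timp1 was at 18.7, 21.8 and 21.6 CPM in the 4OHT libraries, against 18.5, 18.1 and 17.96 CPM in the EtOH libraries and was not called (log2 fold change 0.19 ± 0.13 SE, adjusted p = 0.25 by edgeR), although the groups did not overlap. Per length, Mmp2 was 0.414 ± 0.0601 times Timp2 in the 4OHT libraries and 1.85 ± 0.422 times in the EtOH libraries. Timp2 was above Mmp2 in each 4OHT library and below it in each EtOH library. Mmp14 was 3.44 ± 0.370 times Timp2 in 4OHT and 7.80 ± 0.904 times in EtOH.

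**Figure D5:**
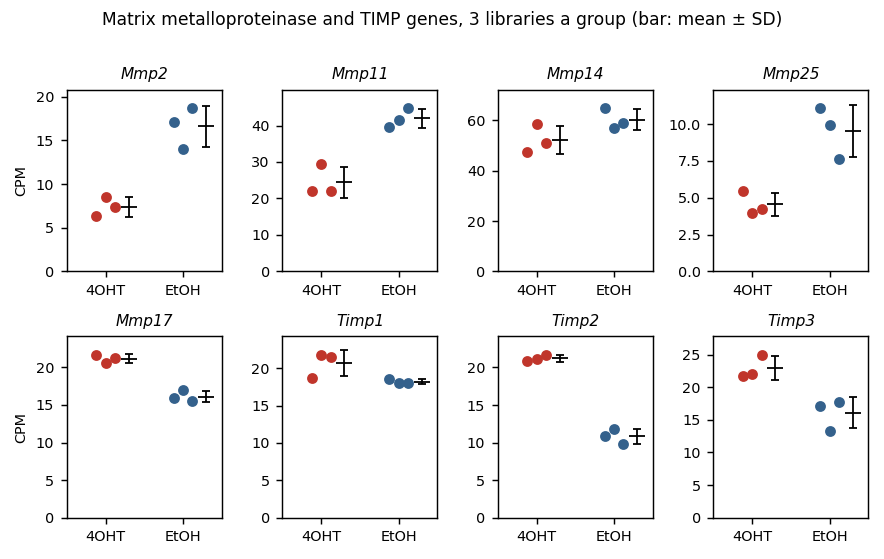
CPM of 5 metalloproteinase and 3 TIMP genes in each library (points; 4OHT left, EtOH right) with the group mean ± SD (bar, n = 3). Mmp2, Mmp11 and Mmp25 are lower in every 4OHT library, and Mmp17, Timp1, Timp2 and Timp3 higher. Mmp14 overlaps between the groups, and Timp1 was not called.

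The 51 genes that were not tested had at most 66 counts over the 6 libraries, which limits what can be detected in them. Of these, 7 had no count: Itgax and the metalloproteinase genes Mmp3, Mmp7, Mmp8, Mmp10, Mmp13 and Mmp27. All 6 of these protease genes lie on chromosome 9 (GRCm38, 7272514 to 7699585) together with Mmp12 and Mmp20, which had 4 counts and 1 count. With 10 counts or more were Mmp9 (66), Col22a1 (51), Col20a1 (48), Mmp28 (41), Col6a4 (39), Col6a2 (38), Col16a1 (35), Lama4 (33), Itga4 (31), Mmp24 (30), Col11a2 (29), Col6a1 (26), Col26a1 (26), Col8a2 (25), Col5a2 (24), Col14a1 (23), Col3a1 (21), Itgam (21), Col4a6 (20), Itga11 (18), Col8a1 (17), Itgb2 (13), Col6a6 (12) and Itgb8 (11), given as counts over all libraries. Col6a1, a chain of the microfibrillar collagen VI, had 9, 7 and 6 counts in the 4OHT libraries and 3, 0 and 1 in the EtOH libraries. Col5a2 had 6, 6 and 7 counts in 4OHT and 3, 1 and 1 in EtOH. With no filter on low counts, edgeR called 2 of the genes left out by the filter higher in 4OHT: Col6a1 (log2 fold change 2.18, adjusted p = 0.0246) and Col4a3, with 1, 4 and 3 counts in 4OHT and 0 in each EtOH library (adjusted p = 0.0468). Col5a2, picked here for its counts, did not pass in that fit (adjusted p = 0.112). The other 27 untested genes, the 7 without a count included, had under 10 counts each.

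Other genes of matrix handling were counted from lists, with edgeR and beside the shares of all tested genes given above. Of 24 tested genes for collagen folding, modification and crosslinking, 8 were higher and 5 lower (median log2 fold change 0.14), against 7 and 3 with DESeq2. Tgm2, a crosslinking transglutaminase gene, was at 50.9 ± 6.07 CPM in 4OHT and 16.02 ± 1.14 CPM in EtOH (3.16-fold), Bmp1, which encodes a procollagen protease, rose 2.11-fold and the lysyl oxidase gene Loxl2 1.76-fold. The collagen chaperone gene Serpinh1 was 1.18-fold lower, P3h4 1.56-fold and Pcolce2 1.40-fold lower. Of 24 tested integrin adaptor and focal adhesion genes, 13 were higher and 3 lower (median log2 fold change 0.21). Parvb, encoding β-parvin, which joins integrin-linked kinase to actin, was at 333 ± 11.3 CPM in 4OHT and 87.9 ± 2.21 CPM in EtOH (3.79-fold, log2 fold change 1.92 ± 0.05 SE, adjusted p = 4.5e-105 by edgeR). Tln1, encoding the integrin-activating adaptor talin-1, rose 1.52-fold and Actn4 1.18-fold, while Tln2 was 1.21-fold, Flna 1.10-fold and Fermt1 1.83-fold lower.

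Of 14 tested genes of other matrix receptors and cell-surface proteoglycans, 5 were higher and 3 lower (median log2 fold change 0.15), against 2 and 3 with DESeq2. The syndecan gene Sdc4 was at 158 ± 13.6 CPM in 4OHT and 82.6 ± 5.81 CPM in EtOH (1.91-fold), Dag1, encoding the laminin receptor dystroglycan, rose 1.19-fold and Gpc1 1.18-fold. Gpc3 was 2.11-fold, Sdc1 1.75-fold and the collagen receptor gene Ddr1 1.28-fold lower. Among 17 tested genes of other matrix proteases and inhibitors, 9 were higher and none lower with edgeR, DESeq2, limma-voom or an unadjusted p under 0.05 (median log2 fold change 0.50). They included Plaur, the receptor gene of urokinase (2.36-fold), and Adam9 (1.67-fold). Of 22 tested genes of other matrix glycoproteins and proteoglycans, 7 were higher and 4 lower (median log2 fold change 0.16), against 4 and 2 with DESeq2. The laminin-related netrin gene Ntn1 rose 1.72-fold, the osteopontin gene Spp1 1.32-fold and the proteoglycan gene Vcan 1.62-fold, while Thbs3 was 1.94-fold, Fbln1 1.43-fold and Spock2 1.54-fold lower.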

How the data were processed

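mRNA was sequenced from stranded libraries, 3 of the 4OHT group and 3 of the EtOH group, per the labels' protocols. The authors deposited a table of raw counts per gene with gene lengths; fastp, STAR, featureCounts and mm10 are named in the submitters' processing notes, and no source used here gives the annotation, strand setting or handling of multiply mapped reads, so overlapping genes and near-identical copies are uncertain. The table holds 1314 genes that have no symbol; these stayed in the fit.

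Genes were kept by filterByExpr (minimum count 10, total 15), scaled with TMM and tested with edgeR 4.0.16 (R 4.3.3; quasi-likelihood test, robust, no covariate, Benjamini-Hochberg over 12345 genes, threshold 0.05). The procedure was tested on simulated data. SEs are absolute log2 fold changes over the square root of F. CPM use the summed counts of tested genes times the TMM factor; levels between genes are per kb of the deposited length. Alternatives used DESeq2 1.42.0, limma 3.58.1, other scalings and filters, a replicate block, and each library left out; voom and DESeq2 ran on the same counts. Replicates differed by more than sampling noise (chi-square per degree of freedom 1.40 to 3.02), so none was merged. Every tested member is named except for an item not reported here; values per library are given for members called with at least 1.5-fold change or averaging at least 100 CPM and for their chain partners, and also for others where they help. Untested members are named from 10 counts, and list genes are the up to 3 of smallest p in each direction, with the same exception. Of the stem cell markers only Pou5f1 and Sox2 are named. The members and lists were chosen with earlier results of these data known. Promoter windows are RefSeq's for GRCm38, matched by symbol; protein sequences were not used here. Figures were drawn with matplotlib 3.10.9 from tables made in pandas 2.3.3 (Python 3.11.15).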

Additional observations from a re-analysis of the deposited data

How the results depend on the processing

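Over the alternatives between 22 and 29 matrix genes were higher and between 4 and 6 lower; the lowest counts, 22 and 4, came with DESeq2 (22 higher also at a threshold of 0.01), which called no gene here that edgeR did not. Without the filter on low counts 28 were higher, 26 of them the same genes; Col6a1 and Col4a3 were the others. Of the 35 genes called, 25 kept call and direction in all 13 alternatives; the other 10 are named in the text with the settings that ended their call. Whether a replicate number marks a shared culture is not stated in the labels. Deviations from the group means correlated at −0.0226, −0.0161 and −0.017 between same-numbered libraries. No 4OHT library correlated best with the EtOH library of its own number. With 3 libraries a group these values cannot settle whether the libraries were paired. With the number as a replicate block 28 genes were higher and 6 lower, Col17a1 missed the threshold, and Col1a1 had a log2 fold change of −0.0309.

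Log2 fold changes that changed sign were all of genes not called. Col18a1 gave −5.01e-04 with DESeq2 size factors, −0.0307 with upper quartile factors and −5.34e-04 with DESeq2. Col1a1 gave −0.00331, −0.0338 and −0.0180 under the same settings, and Itgb5 −0.0151 with upper quartile factors. Leaving out single libraries gave ranges on the log2 scale of −0.00881 to 0.0133 for Col18a1, −0.0434 to 0.445 for Col4a5, −0.163 to 0.170 for Col1a1, −0.126 to 0.185 for Itgae, −0.0588 to 0.115 for Itgb5, −0.0289 to 0.0781 for Lama1, −0.119 to 0.250 for Lamb3, −0.192 to 0.351 for Itga10, −0.134 to 0.579 for Mmp23 and −0.0133 to 0.389 for Col27a1. Raw counts not divided by length moved chain shares to 86.2% in 4OHT and 83.0% in EtOH for Lama5 and 13.03% in 4OHT and 15.7% in EtOH for Lama1, as the longer genes then weigh more. Without TMM factors none of the 116 levels per length changed by as much as 1 SD between libraries. Depth limits the 51 untested genes and those under about 100 counts, where SEs are widest.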
